A study of Homo sapiens with 6 samples.

Results

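The collagen genes are the genes of the alpha chains from which collagens are built. They were taken as all genes whose symbol is COL, a type number, A and a chain number, among the array rows annotated with a single symbol, and each was read from its row with the highest mean signal. This gave 41 of 22411 genes tested, out of 44 such genes in the RefSeq gene table. COL3A1 and COL26A1 had only rows with several symbols and COL17A1 had no named row, so these chains were not analysed here. By the structures their chains are known to form, 10 members were fibrillar, 8 belonged to basement membranes and 23 were other collagens.

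U87 is an established human glioblastoma cell line, and total RNA was measured on 6 Affymetrix whole-transcript arrays. The treated group was 3 arrays of U87 cells incubated for 48 h with a carborane-bearing amino acid at 1 mM, and the control group was 3 arrays of U87 cells given no treatment, with no vehicle named. A carborane is a cage of boron, carbon and hydrogen atoms, and the labels describe the compound no further. Cells of both groups had first been cultured for 48 h in serum-containing EMEM supplemented with pyruvate. All arrays come from 1 cell line. No label states whether replicates came from separate cultures. Each p-value therefore sets a group difference against the spread among such arrays only, and that spread may be technical. The study set treated against untreated cells to find genes that respond to the compound.

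A collagen molecule is made of 3 alpha chains wound into a triple helix, which requires a glycine at each turn of a repeated triplet and hydroxylated prolines that hold the helix together. Fibrillar collagens are secreted as procollagens, trimmed and crosslinked into the fibres of connective tissue. Type IV collagen forms the sheet-like network of basement membranes, and the remaining types form beaded filaments, coat fibrils, build hexagonal networks or span the cell membrane. Normal brain tissue holds little fibrillar collagen outside its vessels and meninges, whereas glioblastoma cells of mesenchymal character can produce several collagens themselves.

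Values are log2 signals after RMA, a procedure that corrects background, gives all arrays a common distribution and summarises the probes of a gene. Groups were compared with limma, and a gene was called where its Benjamini-Hochberg adjusted p over all genes tested was under 0.05. A group mean below the median over all genes (6.06 in treated and 6.09 in control cells) is called near background here, since no detection p-value was available. Levels of different genes rest on different probes and are not compared. Arrays of the same group correlated at 0.998 across genes and arrays of different groups at 0.959 to 0.963, where genes are not independent replicates. Of 7 glioma and astrocyte markers, 2 were lower, 1 was higher and 4 were not called, against 21.6% of all genes lower and 24.0% higher. VIM was lower at -0.70 and NES at -1.89, the last near background in treated cells, and CD44 was higher at 0.44. The mesenchymal and glial markers VIM and CD44 had high signals, with means of 15.96 and 14.45 in treated cells and 16.67 and 14.01 in control cells, whereas GFAP, S100B, AQP4 and SOX2 were near background in both groups. All 9 measured markers of endothelial, immune and epithelial cells were near background as well.

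Among the collagens, calls ran in 1 direction. Of 41 collagens, 19 were lower, none was higher and 22 were not called by limma, while 45.6% of all genes were called, 21.6% lower and 24.0% higher. At an unadjusted p under 0.05 by limma, 21 collagens were lower and 1, COL21A1, was higher. Of all 22411 genes, 5418 were lower and 5966 higher at that threshold. Groups did not overlap in 28 collagens that were lower in treated cells and in 2 that were higher, against 25.8% and 27.7% of all genes. Log2 changes of -1 or lower were found in 7 collagens, COL1A2, COL8A1, COL1A1, COL6A3, COL12A1, COL6A1 and COL13A1, against 4.94% of all genes. No collagen was higher by 1 or more, against 4.98% of all genes. The median log2 change was -0.10 over the 41 collagens and 0.01 over all genes. In bulk RNA, fewer cells of a type and less RNA per cell cannot be told apart.

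Of the 10 collagens that fell by at least 0.8 on the log2 scale, all but COL4A6 had a mean over all arrays above the median of all genes. Of the 14 collagens whose mean over all arrays was above the median of all genes, 12 were lower and 2, COL6A2 and COL16A1, were not called, and 7 fell by at least 1, against 9.52% of all genes above that median. Among all genes above that median, 34.7% were lower and 40.1% were higher. Of the other 27 collagens, 7 were lower, against 8.53% of all genes below the median. The changes of 6 collagens, COL1A2, COL8A1, COL1A1, COL6A3, COL4A6 and COL10A1, lay below the 5th percentile of all genes in their bin of signal, and the other 35 lay between the 5th and the 95th.

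**Figure D1:**
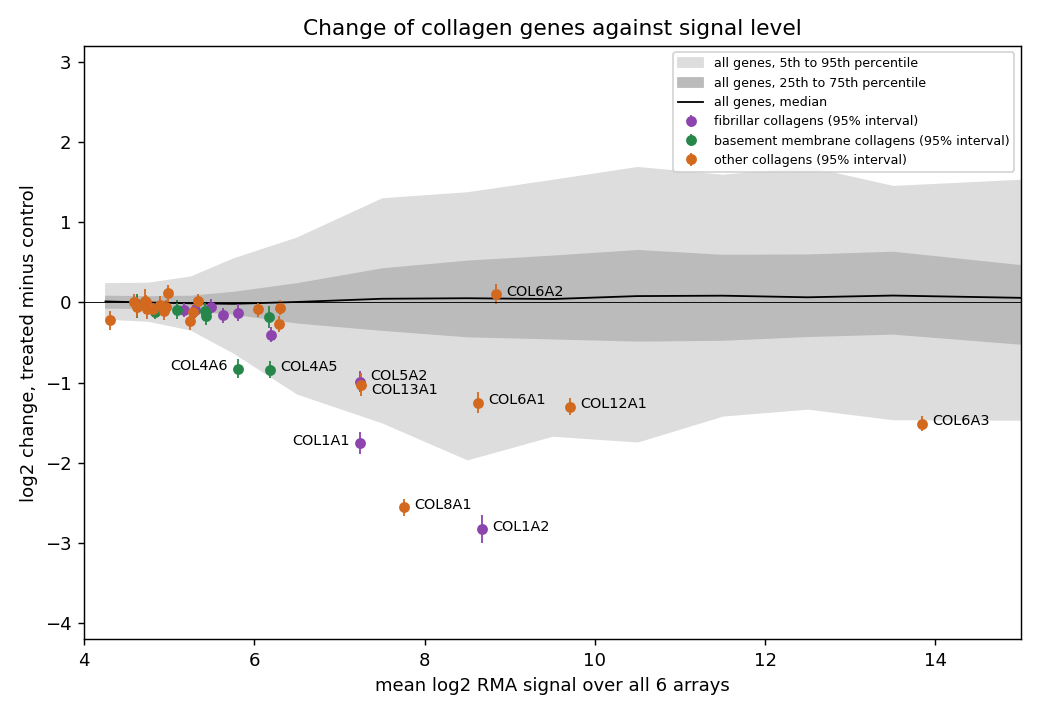
Log2 change (treated minus control, vertical axis) of each collagen against its mean log2 signal over all 6 arrays (horizontal axis), with points coloured by class and bars showing the 95% interval from limma. Grey bands show the percentiles of all 22411 genes in bins of signal; COL1A2 at -2.83, COL8A1 at -2.55 and COL1A1 at -1.75 lie clearly below both bands, COL6A3 at -1.51 lies just below, and COL6A2 at 0.10 lies near the median of all genes.

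Pericyte and fibroblast markers, which are known from collagen-producing stromal cells, changed both ways. Of 4 measured, PDGFRA, PDGFRB and THY1 were lower, with log2 changes of -0.82, -0.66 and -0.17, and RGS5 was higher at 0.24. Of all genes, 21.6% were lower and 24.0% higher. The mean log2 signal of the 4 markers was 6.12 to 6.14 in the treated arrays and 6.42 to 6.54 in the control arrays. THY1 was near background in both groups and PDGFRA in treated cells. The part of these markers in the fall of the collagens was not tested.

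Fibrillar collagens form the fibres that give tissue its tensile strength. Of 10 measured, 6 were lower and 4 were not called, against 21.6% of all genes lower, and their median log2 change was -0.14. Of the 6 calls, 2 were small shifts near background. Type I collagen, the main fibre of bone, skin and tendon, is made of 2 alpha-1 chains from COL1A1 and 1 alpha-2 chain from COL1A2. COL1A2 had log2 signals of 7.24, 7.17 and 7.35 in treated arrays and 10.21, 10.04 and 10.00 in control arrays. This was the largest fall among the measured collagens, with no overlap between groups, and its log2 change was -2.83 (SE 0.07, limma adjusted p = 2.09e-07). A change at least as low was seen in 0.767% of all genes.

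COL1A1 had log2 signals of 6.41, 6.40 and 6.28 in treated arrays and 8.16, 8.16 and 8.03 in control arrays. Groups were far apart, and the treated values lay just above the median of all genes, at a log2 change of -1.75 (SE 0.06, limma adjusted p = 6.32e-07). COL5A2, a chain of the type V collagen that sits inside type I fibrils and sets their diameter, had 6.79, 6.76 and 6.70 in treated arrays and 7.67, 7.83 and 7.72 in control arrays. Its log2 change was -0.99 (SE 0.06). COL5A1, its partner chain, averaged 6.00 ± 0.03 in treated cells and 6.40 ± 0.03 in control cells (SD, n = 3 each), a smaller log2 change of -0.40 that left it near background in treated cells.

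The other fibrillar chains were near background in both groups. Among them COL2A1, the cartilage collagen, had a log2 change of -0.16 (limma adjusted p = 0.0142) and COL27A1 one of -0.13 (limma adjusted p = 0.0481). The call of COL27A1 was lost without any 1 of the 6 arrays, and that of COL2A1 without control replicate 1 or control replicate 2, at adjusted p-values of 0.0502 and 0.0512 by limma. COL5A3, COL11A1, COL11A2 and COL24A1 were not called, with log2 changes of -0.09, -0.09, -0.05 and -0.02.

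**Figure D2:**
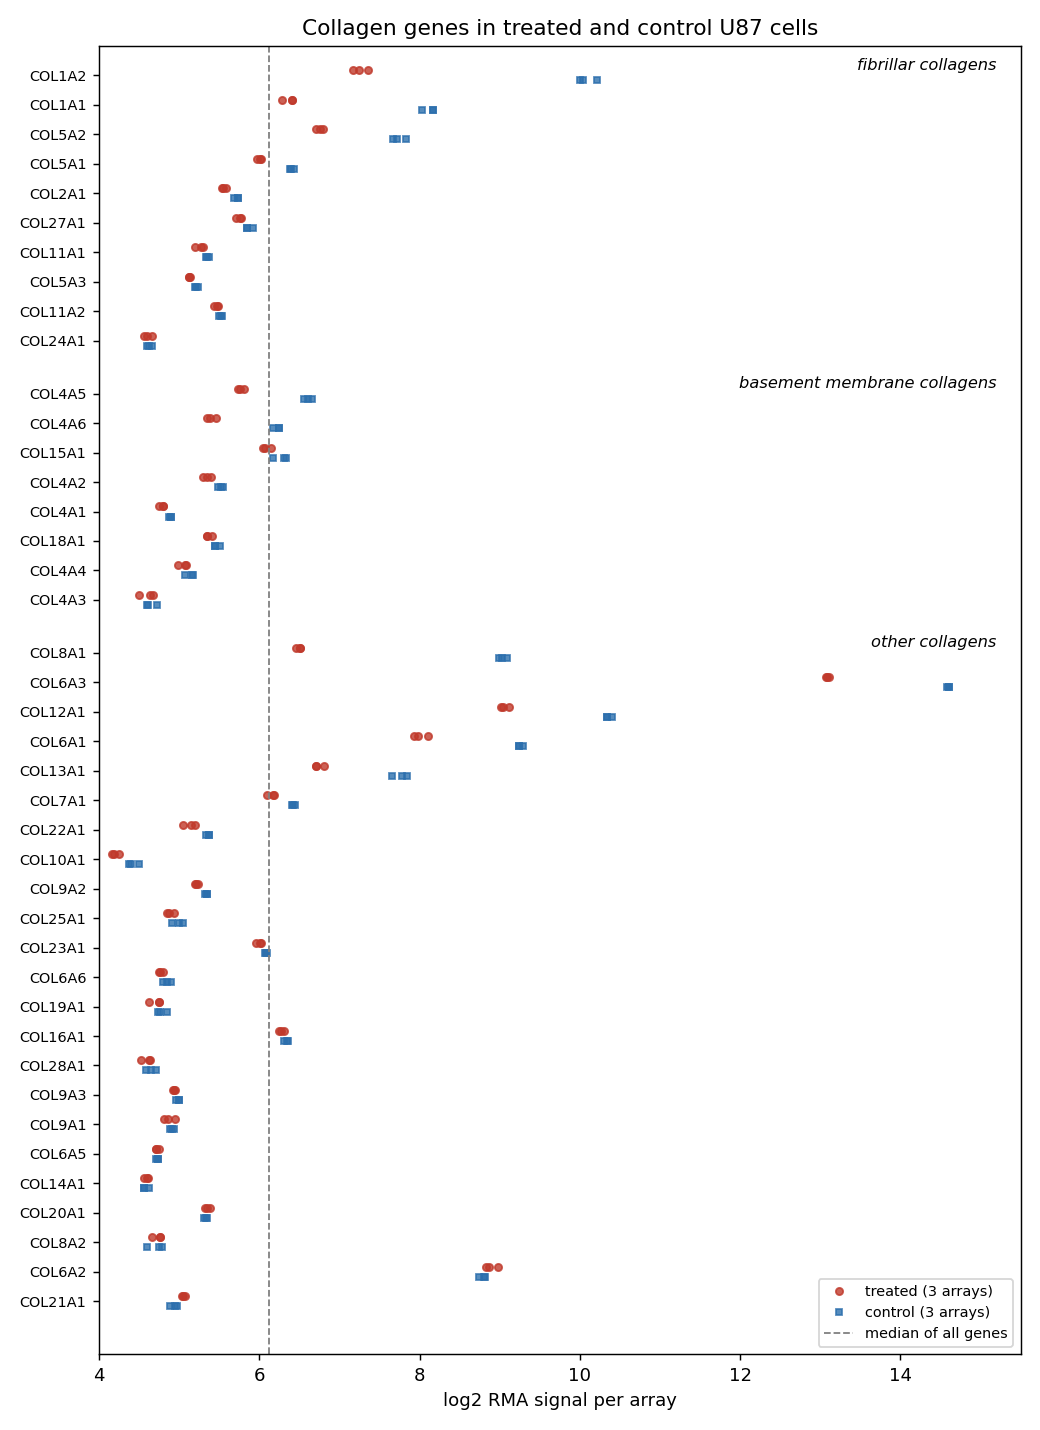
Log2 RMA signal of the 41 collagens in each array (horizontal axis), grouped by class, with 3 treated arrays as circles above 3 control arrays as squares and the median of all genes as a dashed line. The groups are wide apart in COL1A2, COL1A1, COL8A1, COL6A3 and COL12A1, whereas COL6A2 lies at similar values in both, and most of the other collagens lie left of the dashed line.

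Basement membrane collagens are built of type IV chains, whose 6 genes lie in head-to-head pairs that share a promoter region, and of the multiplexins COL15A1 and COL18A1. Only COL4A5 and COL4A6 fell by more than 0.2 on the log2 scale among the 8 measured. The genes start 380 bases apart on opposite strands of chromosome X, so that the 250 bases before each start overlap by 121 bases. These windows are shown, from RefSeq (GRCh38.p14), because both genes were lower by similar amounts. COL4A5 is at chrX:108439588-108439837 on the plus strand and COL4A6 at chrX:108439459-108439708 on the minus strand, each 5′ to 3′ and ending at the base before the gene's start, with the stretch shared by both in capitals. RefSeq also lists another start for COL4A6, not shown.
COL4A5: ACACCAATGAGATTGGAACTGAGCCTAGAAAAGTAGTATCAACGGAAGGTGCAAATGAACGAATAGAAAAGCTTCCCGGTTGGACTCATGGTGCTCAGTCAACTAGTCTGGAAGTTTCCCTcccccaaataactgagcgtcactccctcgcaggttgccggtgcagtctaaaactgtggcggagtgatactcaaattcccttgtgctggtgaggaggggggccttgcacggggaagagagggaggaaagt
COL4A6: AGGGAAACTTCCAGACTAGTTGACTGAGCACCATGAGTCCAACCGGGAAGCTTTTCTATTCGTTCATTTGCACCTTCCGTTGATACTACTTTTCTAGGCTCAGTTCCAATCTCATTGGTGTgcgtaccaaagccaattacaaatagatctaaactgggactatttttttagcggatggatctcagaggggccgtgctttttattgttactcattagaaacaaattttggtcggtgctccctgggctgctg
The shared stretch reads as reverse complements in the windows. The letters CCAAT or their reverse complement occur 2 times in the COL4A5 window, both in the shared stretch. They occur 3 times in the COL4A6 window, and 2 of these are the same shared bases. With both strands searched, such letters occur in 32.0% of all 35116 promoter windows of this length and in 10 of the 30 collagens with a window. Collagens were counted where any of their windows held the letters, so this count is not compared with the share of windows. A match of letters is a description and not a binding site.

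COL4A5 had log2 signals of 5.73, 5.76 and 5.81 in treated arrays and 6.65, 6.60 and 6.56 in control arrays. COL4A6 had 5.34, 5.38 and 5.46 in treated arrays and 6.25, 6.24 and 6.17 in control arrays. In both genes every treated array lay below every control array and below the median of all genes. The log2 changes were -0.84 (SE 0.04, adjusted p = 5.53e-06 by limma) and -0.83 (SE 0.05, adjusted p = 8.97e-06 by limma), and their size is uncertain because the treated signals were near background. Within single arrays, COL4A5 minus COL4A6 was 0.39, 0.38 and 0.35 in treated cells and 0.40, 0.36 and 0.39 in control cells, a change of -0.01 (exact two-sided permutation test, p = 0.60).

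COL4A1 and COL4A2, the chains of the most widespread type IV collagen, were near background in both groups. Whether their rows on the array capture these transcripts was not tested, so low expression cannot be read from these signals. COL4A2 had signals of 5.29, 5.40 and 5.35 in treated arrays and 5.52, 5.54 and 5.48 in control arrays, with a log2 change of -0.17 (limma adjusted p = 0.0214). COL4A1, at -0.11, did not pass the threshold (95% interval -0.21 to -0.02, adjusted p = 0.0541 by limma), and COL4A3 and COL4A4, whose chains are known from kidney, lung and eye, had -0.04 and -0.09. COL15A1 averaged 6.09 ± 0.05 in treated cells and 6.27 ± 0.09 in control cells (SD, n = 3 each), a log2 change of -0.18 (limma adjusted p = 0.0364). COL18A1, from which the angiogenesis inhibitor endostatin is cut, was near background and not called at -0.10. Of the 8 basement membrane collagens, 4 were lower and 4 were not called, against 21.6% of all genes lower. Their median log2 change was -0.14. The count of 4 lower collagens was 2 without treated replicate 1, treated replicate 3, control replicate 1 or control replicate 2. The calls of COL4A2 and COL15A1 were lost each time.

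Of the 23 other collagens, 9 were lower and 14 were not called, against 21.6% of all genes lower, and their median log2 change was -0.08. Type VI collagen forms beaded filaments around cells, and its usual trimer takes 1 chain each from COL6A1, COL6A2 and COL6A3. COL6A3 had log2 signals of 13.09, 13.11 and 13.07 in treated arrays and 14.61, 14.61 and 14.58 in control arrays, a log2 change of -1.51 (SE 0.04, limma adjusted p = 1.83e-07). COL6A1 had 8.11, 7.98 and 7.93 in treated arrays and 9.24, 9.29 and 9.24 in control arrays, a log2 change of -1.25 (SE 0.06, limma adjusted p = 2.41e-06). COL6A2 had 8.98, 8.86 and 8.83 in treated arrays and 8.80, 8.82 and 8.74 in control arrays. Every treated value of COL6A2 lay above every control value, but the difference of 0.10 was not called (95% interval -0.02 to 0.23, adjusted p = 0.172 by limma). COL6A5 and COL6A6, chains that can take the place of COL6A3, were near background with log2 changes of 0.00 and -0.08.

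The windows before COL6A2 and COL6A3 are shown because one chain fell and its partner was not called; RefSeq's promoter table gave none for COL6A1 here. COL6A2 lies at chr21:46097862-46098111 on the plus strand and COL6A3 at chr2:237414165-237414414 on the minus strand (GRCh38.p14), 5′ to 3′, with TATAAA and GGGCGG, on either strand, in capitals.
COL6A2: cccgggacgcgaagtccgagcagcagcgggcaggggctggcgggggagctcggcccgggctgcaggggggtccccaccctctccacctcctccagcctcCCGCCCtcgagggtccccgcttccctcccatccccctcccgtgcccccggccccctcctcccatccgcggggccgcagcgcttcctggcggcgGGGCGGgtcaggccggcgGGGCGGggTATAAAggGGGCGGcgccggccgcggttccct
COL6A3: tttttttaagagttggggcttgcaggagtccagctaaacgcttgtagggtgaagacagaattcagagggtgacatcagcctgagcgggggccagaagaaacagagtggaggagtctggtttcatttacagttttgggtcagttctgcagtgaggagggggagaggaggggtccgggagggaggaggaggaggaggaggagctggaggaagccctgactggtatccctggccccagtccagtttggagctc
The COL6A2 window held TATAAA 1 time, beginning 32 bases before the start, and GGGCGG 4 times, where the window of COL6A3 held neither. Among all windows, 10.7% held TATAAA and 42.6% held GGGCGG, and of the 30 collagens with a window, 6 and 21 did. A collagen was counted where any of its windows held the letters, so its count is not compared with the share of windows. The share of G and C was 79.6% before COL6A2 and 56.0% before COL6A3.

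Chains of one trimer were also set against each other within each array. Only the change of a difference between chains is read here, not its sign. Of 10 partner pairs, 5 had both chains above the median of all genes in at least 1 group. With 3 arrays against 3, the exact two-sided permutation test cannot go below p = 0.10, so no pair could pass a threshold of 0.05, and p-values were adjusted over these 5 pairs. COL6A1 minus COL6A2 was -0.87, -0.88 and -0.90 within treated arrays and 0.44, 0.47 and 0.50 within control arrays, a change of -1.35 (exact p = 0.10, adjusted 0.125). COL1A1 minus COL1A2 was -0.83, -0.77 and -1.07 within treated arrays and -2.05, -1.88 and -1.97 within control arrays, a change of 1.08 (exact p = 0.10, adjusted 0.125), as COL1A2 fell further than COL1A1. For COL5A1 minus COL5A2 the mean was -0.75 ± 0.07 in treated and -1.34 ± 0.06 in control arrays (SD, n = 3 each), a change of 0.59 (exact p = 0.10, adjusted 0.125). COL6A3 minus COL6A1 averaged 5.08 ± 0.09 in treated and 5.34 ± 0.03 in control arrays, a change of -0.26 (exact p = 0.10, adjusted 0.125). In these 4 pairs the values of treated and control arrays did not overlap, and in COL4A5 minus COL4A6 they did (adjusted p = 0.60, exact test). COL1A1 and COL5A1 had treated means of 6.36 and 6.00, close to the median of all genes, where a change can be understated, and the part of this in the differences was not tested. In the other 5 pairs at least 1 chain was near background in both groups, and they were not compared.

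**Figure D3:**
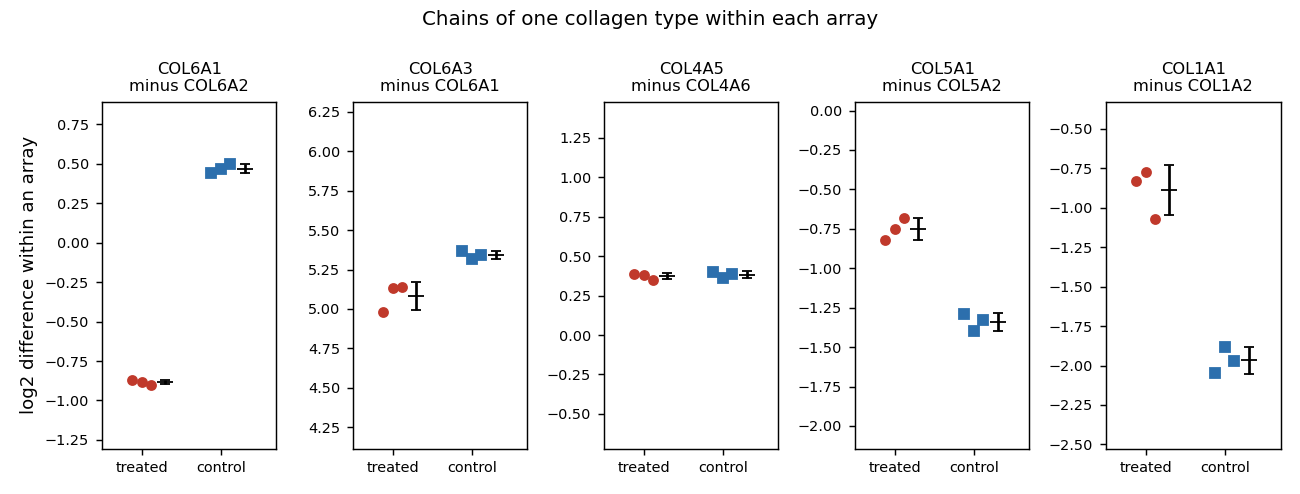
Difference in log2 signal between 2 chains of one collagen type within each array (vertical axes, each spanning the same range), with treated arrays as circles left of control arrays as squares and black marks showing mean and SD (n = 3 each). COL6A1 minus COL6A2 moves by -1.35 and COL1A1 minus COL1A2 by 1.08, whereas COL4A5 minus COL4A6 moves by -0.01.

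Among the fibril-associated collagens, which coat the surface of fibrils and link them to other matrix, COL12A1 was the member with a clear change. It had log2 signals of 9.04, 9.12 and 9.02 in treated arrays and 10.34, 10.40 and 10.34 in control arrays. The groups were more than 1 log2 unit apart in every array, with a log2 change of -1.30 (SE 0.05, limma adjusted p = 7.80e-07). COL16A1 averaged 6.27 ± 0.03 in treated cells and 6.33 ± 0.02 in control cells (SD, n = 3 each) and was not called at -0.06. The remaining 8 of these 10 collagens were near background, of which COL22A1 and COL9A2 were lower at -0.23 and -0.12 and the others were not called. The call of COL9A2 was lost without any 1 of the 6 arrays.

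COL8A1 encodes a chain of type VIII collagen, a short collagen of hexagonal networks that is known from the matrix beneath endothelia and from remodelling vessel walls. It had log2 signals of 6.45, 6.50 and 6.50 in treated arrays and 9.03, 8.99 and 9.09 in control arrays. The log2 change of -2.55 (SE 0.04) had the smallest adjusted p among the collagens, 4.46e-08 by limma, and a change at least as low was seen in 0.977% of all genes. COL8A2, its partner chain, was near background in both groups with a log2 change of 0.02. COL10A1, the related collagen of growth plate cartilage, was lower at -0.22 near background.

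COL13A1, a collagen that spans the plasma membrane and is known from neuromuscular junctions, had log2 signals of 6.71, 6.80 and 6.70 in treated arrays and 7.66, 7.78 and 7.84 in control arrays, a log2 change of -1.02 (SE 0.06, limma adjusted p = 8.20e-06). The other membrane-spanning collagens COL23A1 and COL25A1 were near background and not called, at -0.09 and -0.10. COL7A1, which forms the fibrils that anchor the skin's basement membrane, averaged 6.15 ± 0.04 in treated cells and 6.42 ± 0.02 in control cells (SD, n = 3 each), a log2 change of -0.27 (limma adjusted p = 0.00139). COL28A1 was near background and not called at -0.06.

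In all, 26 collagens were near background in both groups, with signals of 4.16 to 6.10. Of these, 6 were called lower, where 8.53% of all genes with a mean over all arrays below the median were lower. The 6 had log2 changes of -0.23 to -0.12, and the other 20 had changes of -0.11 to 0.11. Among markers of cells that U87 should lack, all near background, 2 of 3 epithelial genes were called lower, EPCAM at -0.20 and KRT19 at -0.14. The third, CDH1, was not called at 0.05, nor was any of 3 endothelial and 3 immune markers. Whether such small shifts come from the collagen transcripts themselves was not tested.

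Enzymes and partners of collagen were examined in 8 lists, with 77 of 78 listed genes measured, of which 35 were lower, 21 higher and 21 not called. Their means lay above the median of all genes in 53 cases, and among all genes above it 34.7% were lower and 40.1% higher, against 8.53% and 7.83% below it. A collagen chain is first hydroxylated, glycosylated and folded in the endoplasmic reticulum. In this list 7 genes were lower, 7 higher and 3 not called, and the list's median log2 change was -0.05. P4HA1, the main catalytic subunit of prolyl 4-hydroxylase, fell by 1.85 on the log2 scale, and the lysyl hydroxylase genes PLOD2 and PLOD1 fell by 1.81 and 1.32 (adjusted p = 1.21e-07, 4.23e-07 and 1.19e-06 by limma). SERPINH1, the chaperone dedicated to procollagen, was lower at -0.16 (limma adjusted p = 0.0451). P3H2, a prolyl 3-hydroxylase known to act on type IV collagen, fell by 0.35. Higher were FKBP14, a prolyl isomerase, by 0.80, the collagen galactosyltransferase gene COLGALT1 by 0.57, and P4HA2 and PLOD3, further hydroxylases, by 0.30 and 0.23.

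Export of procollagen from the endoplasmic reticulum needs outsized COPII vesicles, and most genes of this list rose. Of 11, 9 were higher, 1 lower and 1 not called, and the median log2 change was 0.53. All 11 had means above the median of all genes, where 40.1% of genes were higher. MIA2 averaged 9.73 ± 0.06 in treated cells and 7.68 ± 0.06 in control cells (SD, n = 3 each), and MIA3, whose product TANGO1 loads procollagen into the vesicles, averaged 12.34 ± 0.06 in treated cells and 10.98 ± 0.09 in control cells. The log2 change of MIA2 was 2.05, and the adjusted p-values were 1.90e-07 for MIA2 and 2.42e-06 for MIA3 by limma. The coat genes SEC13 and SEC23B rose by 0.66 and 0.65. KLHL12, which helps to enlarge the vesicles, was lower at -0.25. These genes serve the export of many proteins besides collagen.

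Outside the cell, propeptides are cut off and the fibrils are crosslinked. Of 10 genes of propeptide removal, 5 were lower and 5 not called, against 21.6% of all genes lower. The lower genes included PCOLCE and PCOLCE2, enhancers of the C-proteinase, at -1.02 and -0.78. They also included the N-proteinase genes ADAMTS3 and ADAMTS2 at -0.50 and -0.28. PCOLCE2 was near background in treated cells, as were both ADAMTS genes, and ADAMTS2 and ADAMTS3 in control cells too. All 7 crosslinking genes were lower, against 21.6% of all genes, and the list's median log2 change was -0.70. Of the crosslinking genes, LOXL4, at -0.23, was near background in both groups and PXDN, at -0.62, in treated cells. LOXL1, a lysyl oxidase-like enzyme, averaged 9.40 ± 0.12 in treated cells and 12.26 ± 0.04 in control cells (SD, n = 3 each), a log2 change of -2.86. TGM2, the tissue transglutaminase, had the same change, LOXL2 had -2.11 (limma adjusted p = 4.80e-08) and LOX had -0.70.

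Among 7 partners of fibril assembly, 4 were lower and 3 not called, against 21.6% of all genes lower. SPARC, a collagen-binding matricellular protein, fell by 2.53 on the log2 scale and FN1, the fibronectin gene, by 0.87. The proteoglycan genes DCN and LUM were lower at -1.01 and -0.70, with means of 5.33 and 5.47, near background, in treated cells and 6.34 and 6.17 in control cells. Of 6 basement membrane partners, 4 were lower, 1 higher and 1 not called, against 21.6% of all genes lower and 24.0% higher. The laminin gene LAMB1 fell by 2.02, the nidogen genes NID2 and NID1 by 0.78 and 0.64 and LAMC1 by 0.21, with NID1 near background in both groups, and the agrin gene AGRN rose by 0.24.

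Of 11 collagen receptors, 4 were lower, 3 higher and 4 not called, against 21.6% of all genes lower and 24.0% higher. The integrin alpha chains ITGA1 and ITGA2 pair with the same beta chain, ITGB1, and bind collagen as alternative receptors. ITGA1 had log2 signals of 11.68, 11.59 and 11.81 in treated arrays and 8.89, 8.85 and 8.90 in control arrays, a rise of 2.81 (SE 0.06, adjusted p = 1.12e-07 by limma). ITGA2 had 13.65, 13.81 and 13.56 in treated arrays and 15.40, 15.38 and 15.46 in control arrays, with a log2 change of -1.74 (SE 0.07, limma adjusted p = 1.34e-06). ITGA1 was higher and ITGA2 lower in every treated array. ITGA11, a receptor of fibrillar collagens, was lower at -0.84 and near background in treated cells, ITGB1 at -0.47 and the collagen uptake receptor gene MRC2 at -0.31. OSCAR and GP6, receptors known from osteoclasts and platelets, were higher at 0.30 and 0.19 but near background in both groups.

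Of 8 collagen-degrading enzymes, 3 were lower, 1 was higher and 4 were not called, against 21.6% of all genes lower and 24.0% higher. CTSK, the gene of cathepsin K, which cleaves the triple helix in acid compartments, averaged 11.41 ± 0.11 in treated cells and 14.37 ± 0.11 in control cells (SD, n = 3 each), a log2 change of -2.96. The protease gene FAP had -2.00 and the gelatinase gene MMP2 had -1.02, while the membrane-bound collagenase gene MMP14 rose by 0.49. MMP1, the interstitial collagenase, did not pass the threshold at -0.05. The lists were chosen with earlier results of these data known, and no test of a list as a whole was made.

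**Figure D4:**
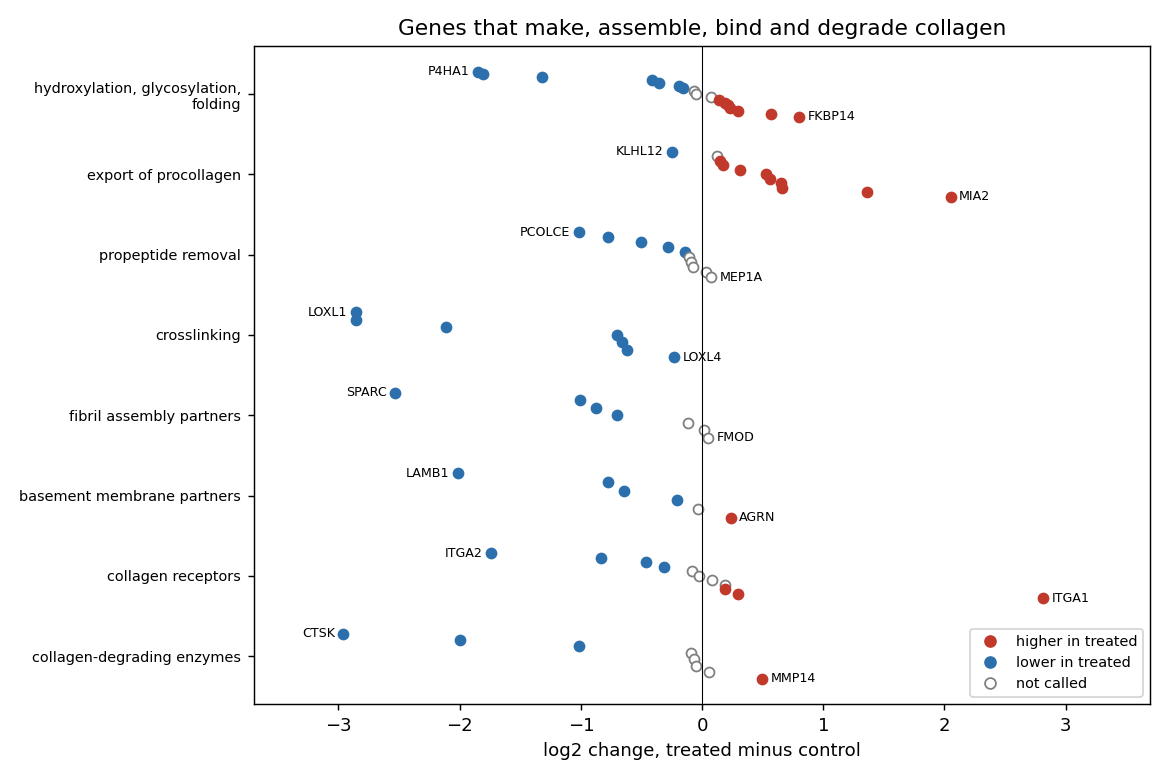
Log2 change (treated minus control, horizontal axis) of the 77 measured genes in 8 lists of collagen synthesis, assembly, binding and degradation, with 1 point per gene, filled where called by limma, and the lowest and highest gene of each list named. All 7 crosslinking genes lie left of 0, 10 of 11 export genes lie right of 0, and ITGA1 at 2.81 lies opposite to ITGA2 at -1.74.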

How the data were processed

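The authors deposited 1 log2 signal per transcript cluster and array. Per the submitters' processing notes, Transcriptome Analysis Console 4.0.1.36 was used, with RMA. Per the labels' protocols, 100 ng of RNA with an integrity number above 8 was labelled for each array. No build for the array rows is given in the sources used. In each array 181 to 196 of 67528 values exceeded 16, the limit of a 16-bit scan, so the scale may be stretched, and with it each log2 change. The common distribution forced by RMA hides changes of total RNA per cell. Precision is limited by the number of arrays.

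Row names came from GEO's platform annotation, brought up to date with RefSeq (GRCh38.p14), and 23781 rows had 1 symbol, 1543 several and 42204 none here. COL11A2 had 7 rows and COL27A1 had 2. The test was limma 3.58.1 (R 4.3.3; lmFit, then eBayes; no filter, no block). Partner chains were compared with exact permutation tests in scipy 1.17.1. The model was tested on simulated data with independent errors, a setting that cannot speak to replicates that are only technical.

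Named were all called collagens, both chains of each partner pair and, per list, up to 4 genes with the smallest adjusted p in each direction. COL21A1, COL16A1 and the remaining uncalled collagens, the markers, SERPINH1, MMP1, LOXL4 and PXDN were named after their values were seen. Members and lists were chosen with earlier results of these data known. Alternatives left out single arrays or dim genes, used a replicate block, array weights or trended robust estimation, averaged or kept all rows, centred or quantile-normalized again, compressed the scale to 16, or asked for a change of 1.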

Additional observations from a re-analysis of the deposited data

How the results depend on the processing

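The 10 collagens that fell by at least 0.8 on the log2 scale (COL1A2, COL8A1, COL1A1, COL6A3, COL12A1, COL6A1, COL13A1, COL5A2, COL4A5 and COL4A6) were called lower in all 149 of their alternative values, with adjusted p-values of at most 3.74e-04 by limma. Over 27 named collagens, 355 of 391 alternative values kept their direction and side of the threshold, 33 lost a call, 1 gained one (COL4A1 with repeated quantile normalization) and 2 changed sign, both of collagens that were not called and stayed so: COL4A3 without treated replicate 1, with values of -0.0783 to 0.00667 when 1 array was left out, and COL8A2 without control replicate 1, with values of -0.0333 to 0.0617. The near-zero change of COL4A5 minus COL4A6 also changed sign, without treated replicate 3 (-0.0217 to 0.00167 when 1 array was left out) and with repeated quantile normalization (0.0025). The cause of these sign changes was not tested. The count of lower collagens, 19, was 14 to 17 when 1 array was left out, 12 without dim genes and 7 with a minimum log2 change of 1, where 2 fibrillar, 0 basement membrane and 5 other collagens and 2224 of all genes were called. Without dim genes fewer genes are tested. That setting left 2 basement membrane collagens and a median log2 change of -1.01. Leaving out 1 array left 2 to 4 basement membrane collagens. With arrays centred on their median, 1 collagen, COL21A1, was called higher. Centring shifts every log2 change by the same amount by construction, for COL6A2 from 0.103 to 0.130. The part of this shift in the call of COL21A1 was not tested. The differences between partner chains changed to 0.89 for COL1A1 minus COL1A2, 0.49 for COL5A1 minus COL5A2 and -1.12 for COL6A1 minus COL6A2 on the compressed scale, which shrinks every difference by construction, and to -0.35 for COL6A3 minus COL6A1 with repeated quantile normalization, whose cause was not tested. Same-numbered treated and control arrays did not deviate together (correlations of -0.08, 0.04 and -0.05 across genes, with 2 of 6 arrays closest to their own number), so the numbers were not taken as pairs. With the replicate block, 16 collagens were lower, and COL27A1, COL2A1 and COL9A2 lost their calls. Small changes near background are the ones these 6 arrays measure least firmly.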
